A study of Homo sapiens with 32 samples.

Results

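The comparison set 72 h of TGFβ1 against solvent in wild-type (WT) MCF10A cells, an immortalized, non-tumorigenic human mammary epithelial line. It comprised 8 of the 32 RNA-seq libraries of the series, taken by their labels as the 4 WT solvent libraries and the 4 WT libraries with 72 h of TGFβ1. In the series, WT cells and cells with an edited JUNB gene received TGFβ1 for 6, 24 or 72 h, or solvent. The WT cells were 2 single-cell-derived clones, numbered 27 and 2, each with 2 replications, and a series (27-1, 27-2, 2-1 or 2-2) is the run of libraries of 1 clone and replication. Recombinant human TGFβ1 was given at 5 ng/ml, the solvent was BSA in PBS (labelled 0 h), and both were renewed at 48-h intervals. All groups grew in the same medium with horse serum, EGF, hydrocortisone, cholera toxin and insulin. Each WT group therefore rests on 2 clones of 1 cell line. The p-values of the main fit measure the spread among libraries of the same condition. That spread was estimated over all 32 libraries, mut cells included, without pairing by series. The WT 24 h libraries and the mut clones, in which the labels give a JUNB knock-out and the study's methods an extended deletion that left a shorter polypeptide, were used where named. The mut cells were also 2 single-cell-derived clones with 2 replications each.

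TGFβ1 is a secreted cytokine that binds a pair of receptor kinases, which phosphorylate SMAD2 and SMAD3. These enter the nucleus with SMAD4 and change transcription together with other factors, among them the AP-1 dimers of JUN and FOS proteins. In mammary epithelial cells TGFβ1 is known for arresting proliferation and for the epithelial-mesenchymal transition (EMT), in which cells give up junctions and polarity and take up a matrix-secreting, motile state.

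The 8 libraries held 39702412 to 49442595 gene counts, so that 3 counts corresponded to 0.0607 to 0.0756 counts per 1000000 (CPM). Series 27-2 stood apart. On the second principal component of the 8 libraries, which held 21.8% of the variance, its solvent and 72 h libraries lay at -72.3 and -49.3 and the other 6 libraries between 6.41 and 32.5. Below, results are given again without it where a call changes. Of 9 basal mammary markers all 9 averaged at least 1 CPM, and their summed level was 12161 to 13873 CPM in solvent and 15107 to 18436 CPM at 72 h. Of the 9, 4 were called higher and 1 lower. LAMB3, a laminin chain, averaged 1691 CPM in solvent and 5546 CPM at 72 h, whereas KRT5 averaged 6261 and 3653 CPM. KRT17, TP63, CDH3 and EGFR did not pass. The 7 luminal markers found summed to 274 to 332 and 272 to 376 CPM, with ESR1, KRT19 and PRLR under 1 CPM. Of 9 fibroblast markers found, 3 rose: FAP, from 35.6 to 281 CPM on average, COL1A1 and PDGFRA. PDGFRA, PDGFRB, COL3A1, DPT, PI16 and THY1 averaged under 1 CPM. The 9 summed to 43.1 to 67.5 CPM in solvent and 268 to 383 CPM at 72 h. The part of this rise in the results was not tested. Endothelial, leukocyte and adipocyte markers each summed to at most 32.6 CPM in any of the 8.

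Of 14865 genes tested, 7766 (52.2%) passed an adjusted p of 0.05 between WT cells at 72 h and in solvent. They divided into 2061 higher genes (13.9%) and 5705 lower genes (38.4%). Over all genes the log2 fold change had a median of -0.19 when libraries were scaled by their total counts, as the study did. With TMM scaling, which assumes that most genes do not change, the median was -0.0286 and 6648 genes passed (44.7%), 3189 higher (21.5%) and 3459 lower (23.3%). All 2061 rises and 3459 of the falls under library-size scaling were also called in the same direction under TMM. CPM cannot tell a gene whose RNA fell in each cell from one whose share fell because others rose, nor fewer cells of a kind from less RNA per cell. Therefore each gene group is given under both scalings. Changes of at least 1 log2 unit were called for 1500 genes (10.1%), 625 up and 875 down, but 771 up and 626 down under TMM. Changes of at least 3 log2 units were called for 104 up and 104 down (122 and 88 under TMM). Among the called genes, 2004 of the rises and 5568 of the falls had the same sign in all 4 series. The calls came from these same libraries, so this agreement is not separate evidence.

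**Figure D1:**
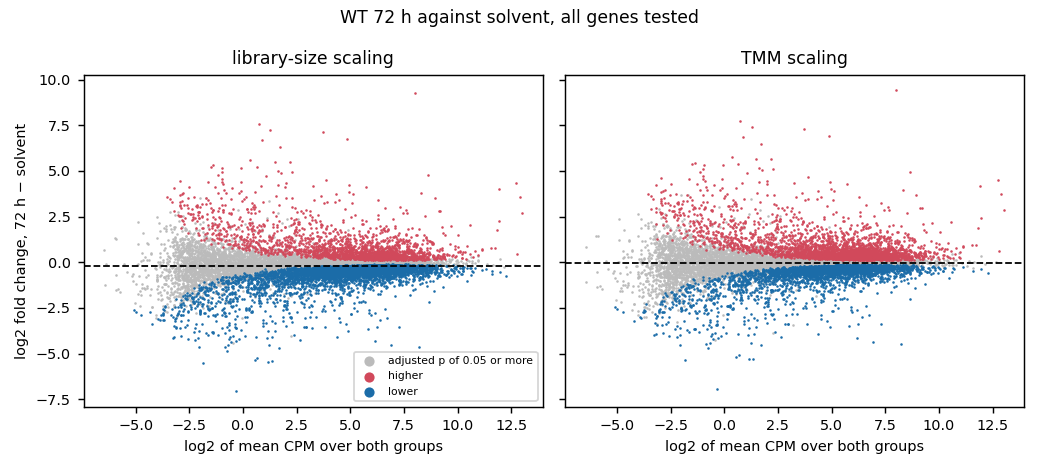
Each point is 1 of the genes tested, with the log2 of its mean CPM over both groups on the x axis and its log2 fold change of WT 72 h against solvent on the y axis, under library-size scaling on the left and TMM scaling on the right; red and blue points are called higher and lower and grey points are not called. The dashed line is the median of all genes, -0.19 on the left and -0.0286 on the right, and the largest changes lie far from it in both panels.

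The mesenchymal marker genes FN1, CDH2 and VIM were higher in every series. FN1, which encodes fibronectin (ENSG00000115414, chr2:215360440-215436073, minus strand, in GRCh38 by GENCODE 44), measured 508, 1548, 580.1 and 329 CPM in the solvent libraries and 8840.2, 12648, 12169 and 17963 CPM at 72 h, in the order of series 27-1, 27-2, 2-1 and 2-2 that is kept throughout. The groups did not overlap although solvent library 27-2 was the highest of its group (log2 fold change 4.33 ± 0.47 SE, adjusted p = 1.65e-08). CDH2, which encodes N-cadherin (ENSG00000170558, chr18:27932879-28177946, minus strand), measured 36.8, 63.6, 35.7 and 40.2 CPM in the solvent libraries and 124, 141, 125 and 147 CPM at 72 h (log2 fold change 1.65 ± 0.16 SE, adjusted p = 3.67e-09). VIM, the intermediate filament vimentin, was already abundant and rose less, from 1000.4 ± 233 to 1479 ± 149 CPM (SD, n = 4), with a log2 fold change of 0.58 ± 0.12 SE and an adjusted p of 0.000217.

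Epithelial marker genes were lower at 72 h. EPCAM, a cell-surface adhesion molecule of epithelia (ENSG00000119888, chr2:47345158-47387601, plus strand), measured 54.2, 33.5, 51.6 and 46.9 CPM in the solvent libraries and 18.7, 14.4, 17.8 and 9.23 CPM at 72 h. Its groups did not overlap (log2 fold change -1.66 ± 0.23 SE, adjusted p = 1.02e-06). CDH1, which encodes E-cadherin (ENSG00000039068, chr16:68737292-68835537, plus strand), measured 453, 224, 387 and 335 CPM in the solvent libraries and 311, 147, 273 and 174 CPM at 72 h. It fell within each of the 4 series, by 0.50 log2 units in series 2-1 up to 0.95 in series 2-2, but the groups overlapped, because solvent library 27-2 lay below 2 of the 72 h libraries. With all libraries and no block the call depended on scaling: adjusted p was 0.0303 under library-size scaling and 0.103 under TMM. It was 0.00124 without series 27-2 and 5.18e-07 with the series as a block. In both of these settings CDH1 also passed under TMM. CLDN7, a claudin of tight junctions, went from 126 ± 43.5 to 41.1 ± 23.2 CPM and GRHL3, a transcription factor of epithelial barriers, from 67.1 ± 16.9 to 12.1 ± 6.69 CPM (SD, n = 4). Both were lower in all 4 series (log2 fold change -1.73 ± 0.36 and -2.65 ± 0.37 SE).

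EMT transcription factors differed among themselves, also the zinc finger factors SNAI1, SNAI2, ZEB1 and ZEB2 that repress epithelial genes. SNAI1 measured 0.21, 0.778, 0.225 and 0.227 CPM in the solvent libraries and 6.22, 5.30, 6.90 and 4.94 CPM at 72 h, and every 72 h library was above every solvent library (log2 fold change 4.22 ± 0.47 SE, adjusted p = 2.86e-08). SNAI2 was expressed at 88.3, 126, 96.96 and 96.2 CPM in solvent and 237, 276, 289.6 and 329.9 CPM at 72 h (log2 fold change 1.48 ± 0.15 SE, adjusted p = 5.65e-09). ZEB1 rose from 9.85 ± 3.77 to 15.5 ± 3.24 CPM (SD, n = 4), with overlapping groups because solvent library 27-2, at 15.5 CPM, was above the other 3, at 7.79 to 8.16 CPM, and above 2 of the 72 h libraries (log2 fold change 0.72 ± 0.22 SE, adjusted p = 0.00704). For ZEB2 the log2 fold change was 0.50 ± 0.27 SE with an adjusted p of 0.127 (0.0225 with the series as a block). TWIST1 did not pass (log2 fold change -0.16 ± 0.12 SE, adjusted p = 0.275), and without series 27-2, the only series in which it was higher at 72 h, its adjusted p was 0.0461 with a log2 fold change of -0.29. TWIST2 was at 27.8 ± 2.96 CPM in solvent and 30.7 ± 3.22 CPM at 72 h, with an adjusted p of 0.303 under library-size scaling and 0.0392 under TMM. Of 29 tested EMT transcription factors, 11 rose and 2 fell, or 16 and 0 under TMM (median log2 fold change 0.22 and 0.39). The risers included SOX4 (1.78 ± 0.13 SE), ETS1 (1.19 ± 0.23), HMGA2 (0.55 ± 0.14) and RUNX1 (0.48 ± 0.09).

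**Figure D2:**
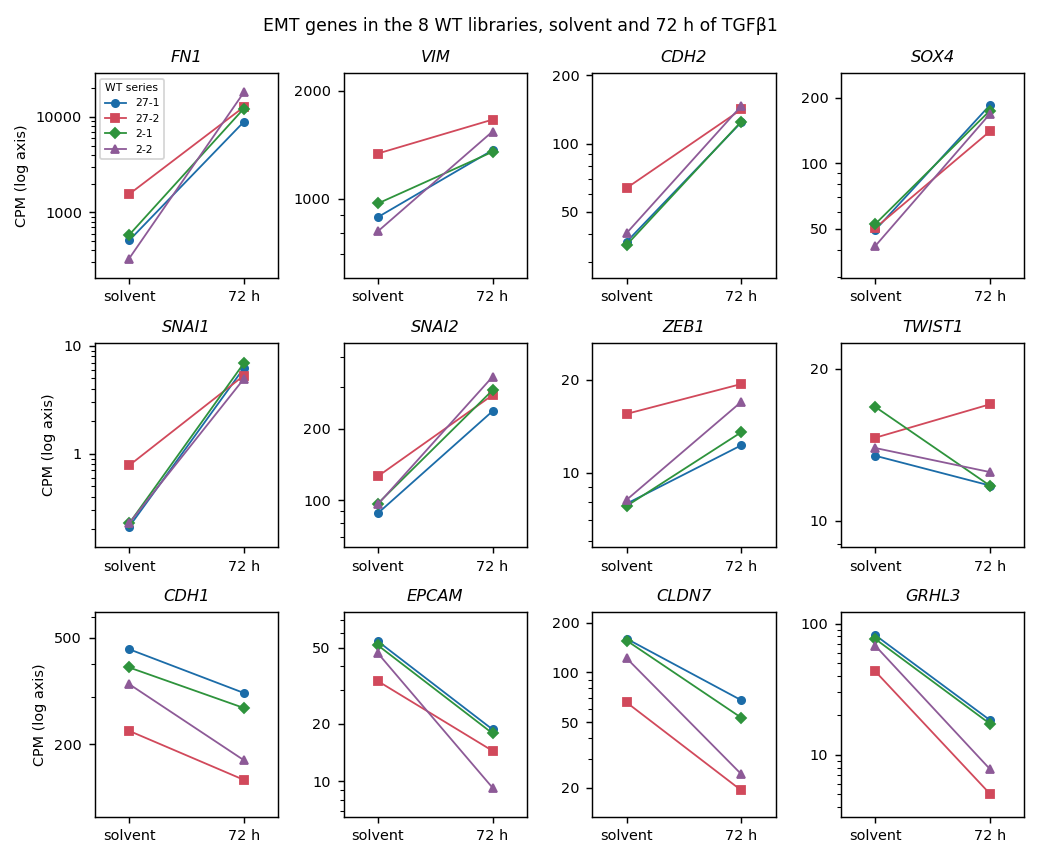
Each panel plots the CPM of 1 gene (log axis) in the 4 WT solvent libraries and the 4 WT libraries with 72 h of TGFβ1, and lines join libraries of 1 series. FN1, VIM, CDH2, SOX4, SNAI1, SNAI2 and ZEB1 rise along all 4 lines, CDH1, EPCAM, CLDN7 and GRHL3 fall along all 4, and TWIST1 rises only in series 27-2.

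The largest rises included secreted and cell-surface proteins. POSTN, the matricellular protein periostin, measured 0.587, 19.5, 0.495 and 0.0504 CPM in the solvent libraries and 293, 848, 356 and 555 CPM at 72 h, so that solvent library 27-2 held most of the solvent signal (log2 fold change 9.26 ± 2.31 SE, adjusted p = 0.00136). LBH, a transcriptional cofactor, measured 0.713, 0.552, 0.18 and 0 CPM in the solvent libraries and 28.98, 25.5, 24.8 and 24.7 CPM at 72 h. KANK4, an adaptor at adhesion sites, measured 0.881, 0.401, 0.856 and 0.201 CPM in the solvent libraries and 50.8, 40.4, 63.4 and 77.3 CPM at 72 h. In single solvent libraries these genes had so few counts that their fitted fold changes depend on the offset of 0.5 counts. Better counted rises were those of TGM2, the tissue transglutaminase that cross-links matrix proteins (29.2 ± 11.001 to 767 ± 186 CPM, SD, n = 4, log2 fold change 4.76 ± 0.25 SE), and ADAM19, a membrane metalloproteinase (49.4 ± 32.5 to 587 ± 76.5 CPM, 3.80 ± 0.41). The secretory chaperone gene SCG5 rose by 4.23 ± 0.56 log2 units, MFAP2, a microfibril protein, by 4.19 ± 0.68, KCNJ15, a potassium channel, by 4.10 ± 0.41 and MMP2, the gelatinase A, by 3.87 ± 0.38. Of these genes and FN1, series 2-2 had the largest change of the 4 in each except MFAP2, where series 27-1 had it.

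The largest falls included a keratin, an enzyme of aldehyde oxidation and an ion channel subunit. KRT15, a keratin of basal epithelial cells, measured 658, 188, 898 and 542 CPM in the solvent libraries and 35.6, 16.6, 23.8 and 11.1 CPM at 72 h, and the groups did not overlap (log2 fold change -4.64 ± 0.61 SE, adjusted p = 3.46e-07). ALDH3A1, an aldehyde dehydrogenase, measured 174, 84.9, 256 and 411 CPM in the solvent libraries and 6.92, 8.62, 9.91 and 9.28 CPM at 72 h. The lowest solvent library was far above the highest 72 h library (log2 fold change -4.53 ± 0.54 SE, adjusted p = 7.01e-08). EHF, an ETS factor of epithelial cells, went from 39.1 ± 22.2 to 2.66 ± 2.74 CPM, S100A8, a calcium-binding alarmin, from 104 ± 56.4 to 7.95 ± 5.24 CPM and ENTPD2, an ecto-nucleotidase, from 140.4 ± 51.3 to 11.5 ± 2.94 CPM (SD, n = 4). CAMK2B fell by 4.29 log2 units, RIPOR2 by 4.26, SUSD2 by 3.73, SCNN1B, a subunit of the epithelial sodium channel, by 3.56, SLC27A2, a fatty acid transporter, by 3.54, PRR15L by 3.54 and IL1RN, the interleukin-1 receptor antagonist, by 3.54. In solvent library 27-2 some of these genes were below the other solvent libraries, with 188 CPM of KRT15 and 7.53 CPM of SCNN1B.

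**Figure D3:**
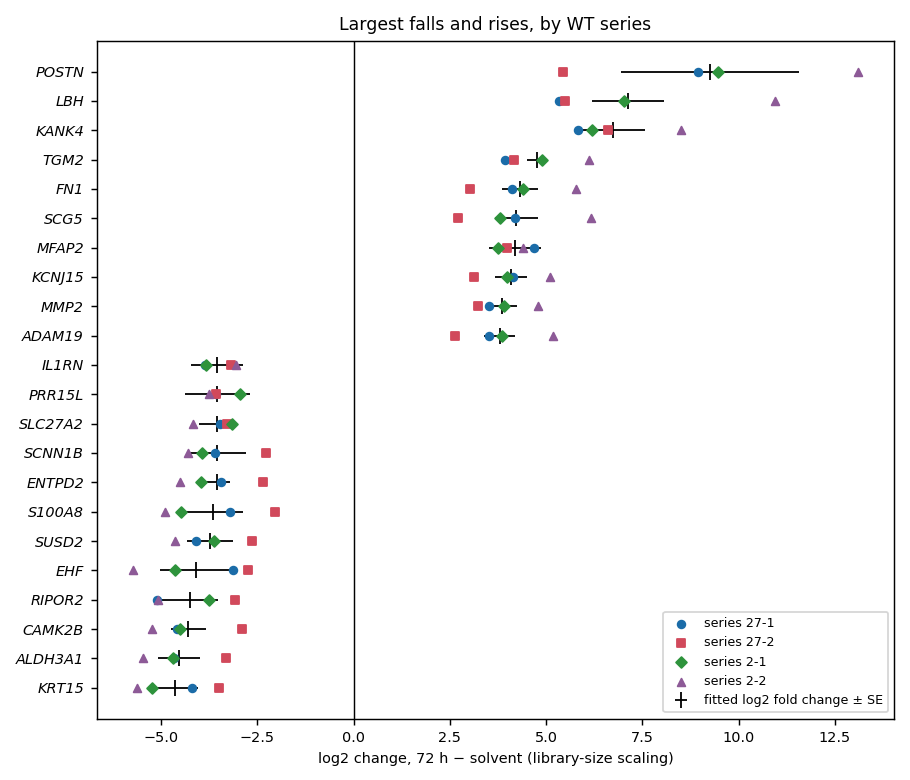
The 12 largest falls and 10 of the 12 largest rises among called genes with at least 10 CPM in the higher group and no overlap of groups; coloured symbols are the log2 change of each WT series on the x axis, and the black bar with its line is the fitted log2 fold change ± SE. Symbols of a gene share 1 sign in every row, which the lack of overlap sets in advance. Those of series 27-2 (red) tend to lie nearest to 0, and POSTN has the widest spread, from 5.44 to 13.1.

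Matrix glycoproteins had the highest median of 31 gene lists that group genes by known role. The lists and their members were chosen with earlier results of these data known, so their counts and medians are descriptions and not separate evidence. Some members were also picked for description after their values were seen. Among matrix glycoproteins 16 of 28 rose and 1 fell (18 and 1 under TMM, median log2 fold change 1.32 and 1.49), against -0.19 and -0.0286 for all genes. TGFBI, a TGFβ-induced adhesive protein, measured 1164, 1641, 1091 and 918 CPM in the solvent libraries and 13394, 12269, 14386 and 15840.2 CPM at 72 h (log2 fold change 3.56 ± 0.24 SE, adjusted p = 7.12e-12). TNC, tenascin C, rose by 2.38 ± 0.28 log2 units, THBS1, thrombospondin 1 and an activator of latent TGFβ, by 2.05 ± 0.31, and FBN1, fibrillin 1, by 3.40 ± 0.39. HSPG2, the basement membrane proteoglycan perlecan, fell (-0.50 ± 0.11). Of the collagen chains, 13 of 22 rose and 2 fell (14 and 0 under TMM, median log2 fold change 1.01 and 1.17). COL4A1 and COL4A2, the chains of basement membrane collagen that lie head to head in the genome, both rose (2.55 ± 0.23 and 1.96 ± 0.17 SE). COL1A1 rose from 8.32 ± 1.99 to 42.4 ± 10.9 CPM (SD, n = 4), while COL1A2 and COL3A1 were too low to be tested. COL6A3 measured 31.9, 119.8, 38.8 and 18.99 CPM in the solvent libraries and 112, 413, 246 and 410.1 CPM at 72 h and its groups overlapped at solvent library 27-2 (adjusted p = 0.000153). The 2 falls, COL5A2 (-0.38 ± 0.10) and COL4A6 (-0.27 ± 0.11), were called under library-size scaling only (adjusted p = 0.0635 and 0.459 under TMM). Among collagen-modifying enzymes 12 of 22 rose and 3 fell (15 and 2 under TMM, median log2 fold change 0.34 and 0.50), with LOX, a cross-linking oxidase (1.64 ± 0.21), P4HA2, a prolyl hydroxylase (1.20 ± 0.08) and PLOD2, a lysyl hydroxylase (1.04 ± 0.10) among the rises, and P3H2 (-0.91 ± 0.14) and CRTAP (-0.41 ± 0.06), both of the prolyl 3-hydroxylation machinery, among the falls.

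Laminin-332, the anchoring laminin of epithelial basement membranes, holds the chains encoded by LAMA3 and LAMB3, and both genes rose. LAMA3 measured 1313, 1898, 1369 and 989 CPM in the solvent libraries and 6274, 6013, 6601 and 7097 CPM at 72 h, and LAMB3 1569.7, 2261, 1660.3 and 1271 CPM in the solvent libraries and 5455, 5323, 5490.2 and 5916 CPM at 72 h. For neither gene did the groups overlap (log2 fold change 2.26 ± 0.18 and 1.74 ± 0.21 SE). Of the other laminin chains tested, LAMB1 rose (0.33 ± 0.08) and LAMA5 was called lower under library-size scaling only (adjusted p = 0.0192, 0.484 under TMM), giving 4 rises and 1 fall among 9 chains, or 6 and 0 under TMM (median 0.16 and 0.32). The AP-1 motif TGANTCA, searched on both strands, lay in the 250 bases before the listed start of LAMA3 in RefSeq (GRCh38.p14). It also lay before 1 of the 3 listed starts of LAMB3 and before that of IL11, a cytokine described below. The motif was held by 4.92% of the 17016 windows found for 11685 of the 14865 tested genes. CLDN7, which fell, carried CAGGTG, the E-box that SNAI and ZEB factors are known to bind, 4 times in one of its 2 listed windows, against 16.5% of windows with at least 1. These 4 windows were chosen after their matches were seen, to show what lies before genes that the results turn on, and capitals mark the motif, which describes letters and not binding. Shares by direction of change are not given, since under 80% of the changed genes had a window. The 4 windows do not show whether either motif goes with rises or with falls. The windows run 5′ to 3′ and end at the base before the start.
LAMA3, chr18:23872770-23873019, plus strand, motif first bases 125 and 69 before the start: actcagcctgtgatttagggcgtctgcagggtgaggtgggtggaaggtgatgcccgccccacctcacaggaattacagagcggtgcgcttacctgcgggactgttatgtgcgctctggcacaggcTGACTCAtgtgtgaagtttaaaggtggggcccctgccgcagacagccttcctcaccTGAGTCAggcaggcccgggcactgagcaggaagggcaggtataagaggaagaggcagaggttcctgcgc
LAMB3, chr1:209651375-209651624, minus strand, motif 67 before the start: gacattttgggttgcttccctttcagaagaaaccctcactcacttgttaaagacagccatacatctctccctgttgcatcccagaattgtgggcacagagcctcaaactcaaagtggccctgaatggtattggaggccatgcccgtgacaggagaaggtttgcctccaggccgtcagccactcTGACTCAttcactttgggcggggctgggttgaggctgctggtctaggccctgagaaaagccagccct
IL11, chr19:55370464-55370713, minus strand, motif 96 before the start: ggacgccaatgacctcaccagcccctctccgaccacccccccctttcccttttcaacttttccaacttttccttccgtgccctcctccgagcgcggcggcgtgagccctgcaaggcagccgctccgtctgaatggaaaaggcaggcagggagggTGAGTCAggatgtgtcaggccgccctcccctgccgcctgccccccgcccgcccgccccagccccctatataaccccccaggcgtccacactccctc
CLDN7, chr17:7262479-7262728, minus strand, motifs 174, 135, 20 and 9 before the start: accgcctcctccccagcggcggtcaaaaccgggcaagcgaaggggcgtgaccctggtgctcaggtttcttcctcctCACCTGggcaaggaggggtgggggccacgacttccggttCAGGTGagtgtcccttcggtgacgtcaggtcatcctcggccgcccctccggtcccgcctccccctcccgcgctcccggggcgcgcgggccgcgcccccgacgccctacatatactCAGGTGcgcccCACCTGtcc

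Integrins are the receptors by which cells grip these matrix proteins. Among integrin subunits 10 of 18 rose and 3 fell (11 and 3 under TMM, median log2 fold change 0.59 and 0.75). ITGB6, whose product pairs with ITGAV to activate latent TGFβ, measured 161, 193, 132 and 88.6 CPM in the solvent libraries and 1034, 795, 1069.9 and 1032 CPM at 72 h (log2 fold change 2.82 ± 0.22 SE, adjusted p = 5.97e-11). ITGA5, the fibronectin receptor chain, rose by 1.35 ± 0.12 log2 units, ITGAV by 1.18 ± 0.12, ITGB4, the hemidesmosomal laminin receptor, by 0.71 ± 0.13 and ITGA2 by 1.18 ± 0.16. ITGB3 was at 0.105 ± 0.095 CPM in solvent and 6.52 ± 1.75 CPM at 72 h. ITGA10 (-0.93 ± 0.16) and ITGB8 (-0.48 ± 0.12) fell. Of the genes for proteolysis of the matrix, 21 of 33 rose and 1 fell (25 and 1 under TMM, median log2 fold change 1.22 and 1.39). The risers took in the plasminogen activator PLAU (157 ± 70.5 to 1021 ± 122 CPM, SD, n = 4) and its receptor PLAUR (1.53 ± 0.18) as well as the inhibitor SERPINE2 (2.70 ± 0.25). Metalloproteinases that rose included MMP2, MMP9 (3.92 ± 1.71 to 35.4 ± 9.85 CPM) and the membrane-bound MMP14 (1.09 ± 0.11), and the inhibitor TIMP2 also rose (1.14 ± 0.09). ADAM8 fell (-1.24 ± 0.33), although its groups overlapped. Beside these, of the mesenchymal cytoskeleton and adhesion list 22 of 29 rose and 2 fell (23 and 1 under TMM, median log2 fold change 0.58 and 0.75). TAGLN, an actin-binding protein of smooth muscle, went from 90.8 ± 44.5 to 318 ± 145 CPM and FAP, a fibroblast-type serine protease, from 35.6 ± 14.04 to 281 ± 43.3 CPM. ACTA2, smooth muscle actin, fell from 19.4 ± 2.48 to 13.8 ± 0.801 CPM (log2 fold change -0.48 ± 0.12 SE, adjusted p = 0.00122).

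Genes of cell-cell adhesion went in both directions. Of tight and adherens junction genes 6 of 30 rose and 12 fell (7 and 8 under TMM, median log2 fold change -0.13 and 0.04), so the sign of the median depended on the scaling. The share that fell (40.0% lower and 26.7% under TMM) was near that of all genes (38.4% and 23.3%). TJP3, a tight junction scaffold, fell from 7.98 ± 3.80 to 1.10 ± 0.737 CPM (SD, n = 4), PARD6B, of the apical polarity complex, by 1.29 log2 units and OCLN, occludin, by 1.10, the latter with an adjusted p of 0.0216, or 0.0521 under TMM. The catenin gene CTNNB1 rose (0.36 ± 0.08), as did CTNNA1 (0.21 ± 0.04), TJP1 (0.27 ± 0.08) and the claudin gene CLDN12 (0.35 ± 0.08). For CDH3, P-cadherin, the log2 fold change was -0.03 ± 0.11 SE (adjusted p = 0.826). Among desmosome and hemidesmosome genes 3 of 17 rose and 10 fell (4 and 7 under TMM, median log2 fold change -0.40 and -0.23). The plakin gene PPL, which links desmosomes to the cornified envelope, measured 198, 76.9, 176 and 155 CPM in the solvent libraries and 30.3, 9.87, 23.6 and 9.94 CPM at 72 h (log2 fold change -3.15 ± 0.42 SE, adjusted p = 4.6e-07), and PKP2, a plakophilin, fell by 1.02 log2 units. The hemidesmosomal genes PLEC (0.48 ± 0.09) and CD151 (0.79 ± 0.09) rose along with ITGB4, while DST, the bullous pemphigoid antigen 1, fell (-0.91 ± 0.11).

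Most genes in the list of epithelial transcription and splicing regulators were lower. The list also holds ST14, SPINT1, SPINT2, PRSS8, RAB25 and MAL2, which are not transcription or splicing factors. In that list 1 of 30 rose and 20 fell (3 and 17 under TMM, median log2 fold change -0.63 and -0.46). Besides EHF and GRHL3, the falls included ZNF750 (7.07 ± 3.81 to 0.979 ± 0.93 CPM, SD, n = 4), a factor of terminal epidermal differentiation, and MAL2, an apical transport protein (662 ± 165 to 154 ± 69.1 CPM). The splicing factors ESRP2 (-0.81 ± 0.08) and RBM47 (-1.18 ± 0.28) fell under both scalings, and ESRP1 under library-size scaling (log2 fold change -0.57 ± 0.19, adjusted p = 0.0157, 0.0779 under TMM). TP63, the master regulator of basal epithelial cells, did not pass (-0.31 ± 0.15, adjusted p = 0.0865), although it did without series 27-2 (adjusted p = 0.0319) and with the series as a block (0.00939). SPINT1, an inhibitor of matriptase, was the 1 member that rose (0.30 ± 0.10). Keratins went both ways, and 6 of 22 rose and 7 fell (7 and 6 under TMM, median log2 fold change -0.21 and -0.04). KRT14 rose from 364 ± 127 to 994 ± 296 CPM while KRT5, its partner in basal keratin filaments, fell from 6261 ± 694 to 3653 ± 209.8 CPM. KRT6A, KRT6B and KRT6C rose (0.79 ± 0.14, 0.80 ± 0.32 and 0.81 ± 0.16 SE), but these are near-identical copies whose reads may be split uncertainly. KRT13 was called lower (-3.62 ± 1.54, adjusted p = 0.0491) under library-size scaling only (0.0673 under TMM). Among squamous differentiation genes 3 of 33 rose and 17 fell (3 and 16 under TMM, median log2 fold change -1.33 and -1.16). TGM1, the cornified envelope transglutaminase, measured 149, 37.9, 162 and 97.7 CPM in the solvent libraries and 20.3, 11.5, 13.6 and 10.3 CPM at 72 h (log2 fold change -2.86 ± 0.41 SE, adjusted p = 1.29e-06), and SPRR1B, an envelope precursor, 50.2, 15.6, 55.6 and 36.8 CPM in the solvent libraries and 11.7, 2.22, 6.34 and 2.22 CPM at 72 h. S100A9, the partner of S100A8, fell from 289 ± 148 to 22.7 ± 10.2 CPM. Involucrin (IVL) and LYPD3 went the other way, at 1.59 ± 0.66 and 0.78 ± 0.18 SE, IVL with overlapping groups and an adjusted p of 0.0443, which was 0.0551 without series 27-2.

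**Figure D4:**
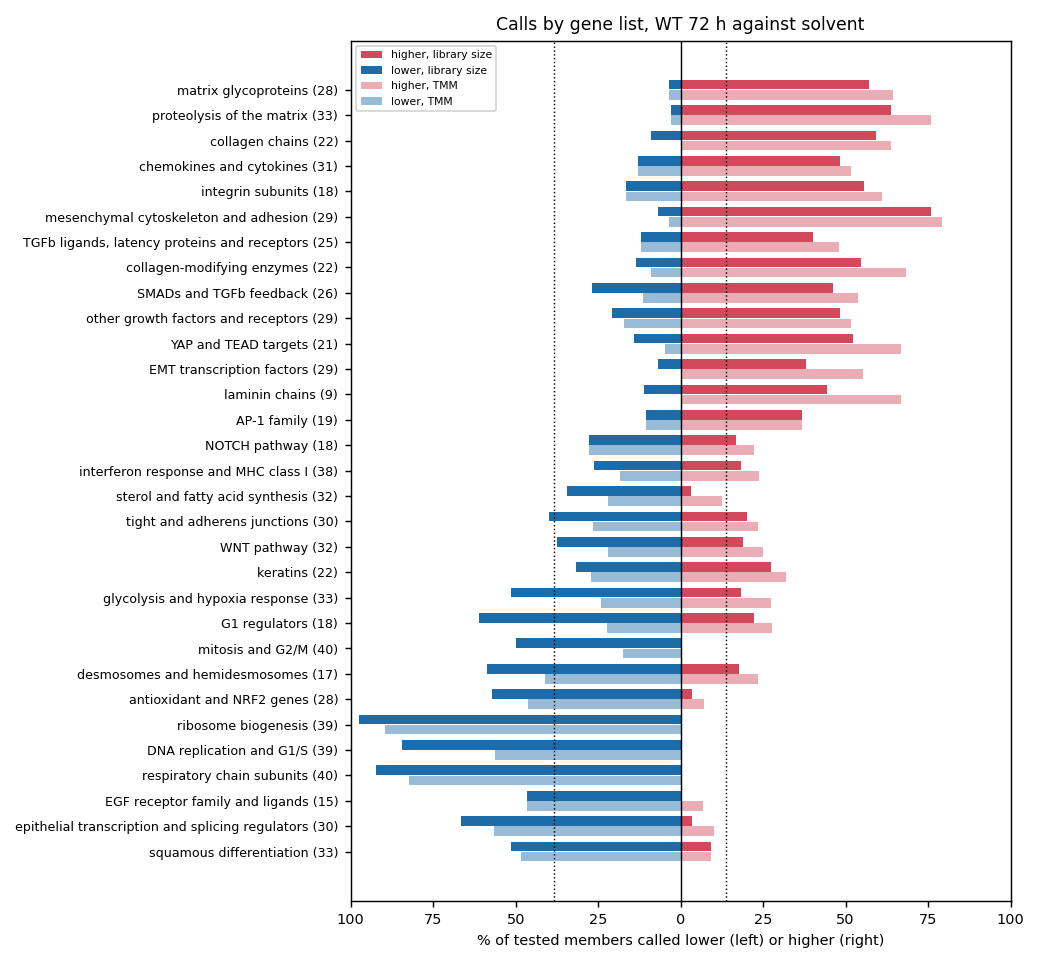
For each gene list (number of tested members in brackets), bars give the percentage of tested members called higher (red, right) or lower (blue, left) in WT cells at 72 h against solvent, dark bars under library-size scaling and pale bars under TMM. Dotted lines mark the share of all tested genes called, 13.9% higher and 38.4% lower; matrix lists lie at the top with bars to the right, and ribosome biogenesis, DNA replication and respiratory chain lists have bars on the left side only.

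In the TGFβ pathway itself, rises were called among ligands, receptors and inhibitors. Of ligands, latency proteins and receptors 10 of 25 rose and 3 fell (12 and 3 under TMM, median log2 fold change 0.37 and 0.53). TGFB1 went from 90.1 ± 9.04 to 125 ± 16.03 CPM and TGFBR1 from 44.9 ± 3.26 to 83.6 ± 10.4 CPM (SD, n = 4), and LTBP2, a latent TGFβ-binding protein, rose by 1.49 ± 0.18 log2 units. INHBA, an activin subunit, rose (1.40 ± 0.43). TGFBR3, the co-receptor betaglycan, fell (-1.75 ± 0.18), as did GDF15 (-1.38 ± 0.35). In the list of SMADs and feedback genes 12 of 26 rose and 7 fell (14 and 3 under TMM, median log2 fold change 0.32 and 0.49). PMEPA1, which sequesters receptor-regulated SMADs, measured 80.9, 135, 72.3 and 48.4 CPM in the solvent libraries and 827, 813, 911 and 1049.9 CPM at 72 h (log2 fold change 3.51 ± 0.25 SE, adjusted p = 1.39e-11). SKIL, a SMAD co-repressor, rose by 1.97 ± 0.18, SMAD7, the inhibitory SMAD, by 1.29 ± 0.10, and SMURF2, the ubiquitin ligase, by 1.19 ± 0.16. SMAD1 of the BMP branch (-0.51 ± 0.07) and TGIF2, a co-repressor (-0.53 ± 0.09), fell, and SMAD3, at 0.15 ± 0.13 SE, did not pass (adjusted p = 0.325).

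In the AP-1 family 7 of 19 rose and 2 fell (7 and 2 under TMM, median log2 fold change -0.0047 and 0.16). JUN measured 45.4, 45.6, 42.4 and 32.4 CPM in the solvent libraries and 165, 138, 175 and 166 CPM at 72 h (log2 fold change 1.96 ± 0.17 SE, adjusted p = 3.3e-10). JUNB measured 89.7, 93.996, 117 and 90.04 CPM in the solvent libraries and 165, 163, 173 and 175 CPM at 72 h, and every 72 h library exceeded every solvent library. Its log2 fold change was 0.80 ± 0.33 SE with an adjusted p of 0.0446. The adjusted p was 0.102 without series 27-2, 0.0191 under TMM and 0.000158 with the series as a block. The SE of the main fit takes in the mut clones, in which JUNB itself was edited. In solvent and at 72 h the SD was 12.9 and 5.78 CPM in WT, against 47.9 and 96.9 CPM in mut cells. From the WT solvent and WT 72 h libraries alone JUNB kept its call. FOS fell from 29.5 ± 5.53 to 14.9 ± 1.57 CPM (SD, n = 4). FOSL1 (0.05 ± 0.13), FOSL2 (-0.11 ± 0.13) and JUND (-0.03 ± 0.09) did not pass.

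Most DNA replication genes were lower at 72 h than in solvent, and many proliferation genes were higher at 72 h than at 24 h. For DNA replication and G1/S 0 of 39 rose and 33 fell (0 and 22 under TMM, median log2 fold change -0.51 and -0.34), and for mitosis and G2/M 0 of 40 rose and 20 fell (0 and 7 under TMM, median log2 fold change -0.36 and -0.19), or 32 falls with the series as a block. Over all genes the block called 6488 of 14865 lower, against 5705 without it. Set against the 38.4% of all genes that were lower, or 23.3% under TMM, the replication list had 84.6% lower and 56.4% under TMM, while the mitosis list, with 50.0% lower and 17.5% under TMM, was above all genes under library-size scaling only. Against 24 h, 36 of 39 replication genes and 38 of 40 mitosis genes were higher at 72 h, and none of either list lower (TMM gave 37 and 38 higher). Both comparisons share the 72 h libraries. The background in that comparison was 7.83% of genes called, 4.68% higher and 3.15% lower. Averaged over the list and expressed against the solvent library of the same series, replication genes stood at -1.25 log2 units at 24 h (series -1.45 to -0.97) and at -0.52 at 72 h (-0.82 to -0.38). Mitosis genes stood at -0.98 (-1.24 to -0.65) and -0.36 (-0.55 to -0.23). All 4 series shared this shape. RRM2, a ribonucleotide reductase subunit, averaged 153 ± 18.8 CPM in solvent, 59.1 ± 11.9 at 24 h and 139.9 ± 32.1 at 72 h (SD, n = 4). MKI67, the proliferation marker, averaged 239 ± 17.9, 118 ± 30.6 and 192 ± 37.4 CPM, and did not pass against solvent (adjusted p = 0.137), although it did with the series as a block (0.04). The licensing factor CDT1 (-0.85 ± 0.14), the phosphatase CDC25B (-1.24 ± 0.13) and MAD2L1 of the spindle checkpoint (-0.65 ± 0.13) were still lower than in solvent.

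Among regulators of G1, 4 of 18 rose and 11 fell (5 and 4 under TMM, median log2 fold change -0.27 and -0.10), a share of 61.1% lower and 22.2% under TMM that exceeded that of all genes under library-size scaling only. MYC measured 609.5, 544, 633 and 710.1 CPM in the solvent libraries and 297, 309.6, 339.6 and 291 CPM at 72 h (log2 fold change -1.01 ± 0.08 SE, adjusted p = 1.26e-10), and CDK4 went from 141 ± 10.7 to 89.8 ± 3.86 CPM (SD, n = 4). CDKN1A, the inhibitor p21, was 427, 448, 455 and 454 CPM in solvent and 524, 486, 506 and 517 CPM at 72 h. Its rise of 0.19 ± 0.08 SE had an adjusted p of 0.0356, which was 0.0533 without series 27-2. CDK6 (0.49 ± 0.10) and CCND1 (0.25 ± 0.09) rose, the latter with an adjusted p of 0.0257, or 0.0509 without that series.

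Most genes of ribosome production and respiration fell, by less than 1 log2 unit at the median. Of ribosome biogenesis genes 0 of 39 rose and 38 fell (0 and 35 under TMM, median log2 fold change -0.51 and -0.34), including FBL, the rRNA methyltransferase fibrillarin (198 ± 11.5 to 115 ± 13.3 CPM, SD, n = 4), and POLR1B, of RNA polymerase I (-0.82 ± 0.07). They were -0.70 log2 units from solvent at 24 h and -0.50 at 72 h, where 10 of 39 were higher than at 24 h. Of nuclear-encoded respiratory chain subunits 0 of 40 rose and 37 fell (0 and 33 under TMM, median log2 fold change -0.54 and -0.38). CYC1, cytochrome c1, fell by 0.78 and ATP5MC1, of the ATP synthase, by 0.80. Here the fall continued from 24 h, at -0.40, to 72 h, at -0.52, and 7 of 40 were lower at 72 h than at 24 h. Among antioxidant and NRF2 genes 1 of 28 rose and 16 fell (2 and 13 under TMM, median log2 fold change -0.47 and -0.31). GSR, glutathione reductase (133 ± 10.005 to 55.2 ± 3.63 CPM), GCLC, of glutathione synthesis (-0.93 ± 0.10), and ABCC2, a conjugate exporter (-2.76 ± 0.30) fell, whereas HMOX1, heme oxygenase 1, rose from 1.88 ± 0.756 to 11.8 ± 3.34 CPM. Of glycolysis and hypoxia genes 6 of 33 rose and 17 fell (9 and 8 under TMM, median log2 fold change -0.25 and -0.09), with HK2, hexokinase 2 (-1.22 ± 0.13), and PDK1, which restrains pyruvate oxidation (-0.87 ± 0.11), lower, and VEGFA (0.67 ± 0.18) and PFKFB4 (0.53 ± 0.15) higher. Of sterol and fatty acid synthesis genes 1 of 32 rose and 11 fell (4 and 7 under TMM, median log2 fold change -0.10 and 0.07), and the falls included TM7SF2, a sterol reductase (-1.66 ± 0.23), ACSS2 (-0.85 ± 0.10) and FASN, fatty acid synthase (-0.63 ± 0.14). STARD4, a cholesterol carrier, was the 1 that rose (0.31 ± 0.10). The median of the last list changed sign with the scaling, and its share of falls (34.4% lower and 21.9% under TMM) was near that of all genes. The glycolysis list, with 51.5% lower and 24.2% under TMM, was near it under TMM.

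**Figure D5:**
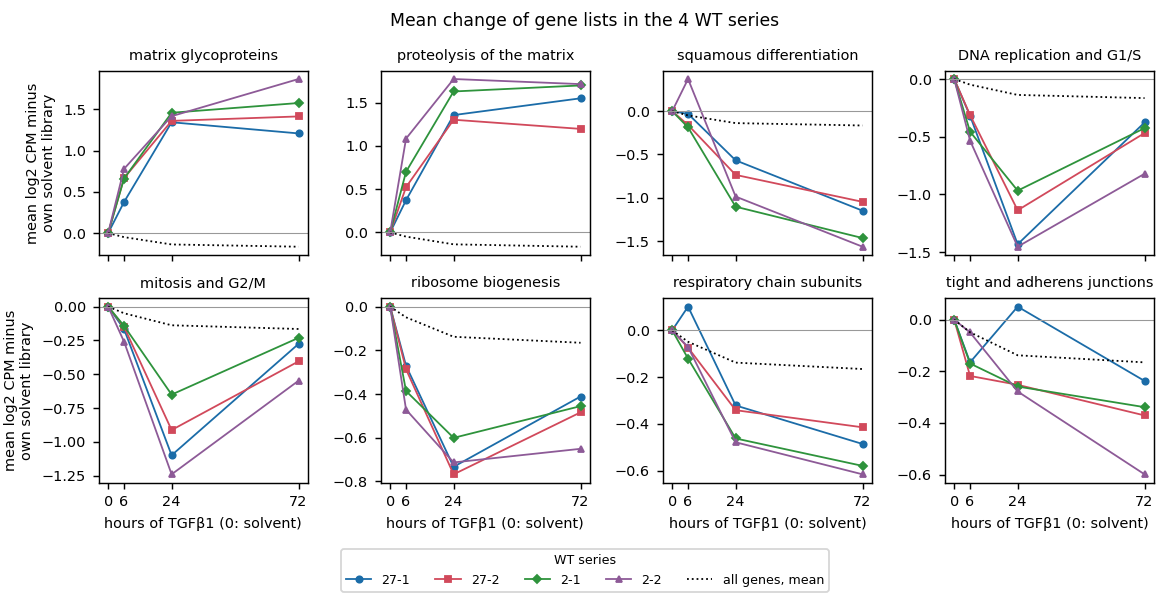
The y axis is the mean log2 CPM of the tested members of a list minus that in the solvent library of the same WT series. The x axis is hours of TGFβ1, and solvent, given for 72 h, is drawn at 0. Coloured lines are the 4 series and the dotted line is the mean of all genes. Replication and mitosis lists are lowest at 24 h, at -1.25 and -0.98, and rise towards 72 h in every series, whereas squamous differentiation goes from -0.85 at 24 h to -1.31 at 72 h.

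Secreted signals changed gene by gene. Of chemokines and cytokines 15 of 31 rose and 4 fell (16 and 4 under TMM, median log2 fold change 0.77 and 0.93). IL11, a cytokine of the interleukin-6 family, measured 1.09, 2.78, 2.21 and 1.21 CPM in the solvent libraries and 12.9, 19.6, 15.9 and 24.4 CPM at 72 h (log2 fold change 3.40 ± 0.50 SE, adjusted p = 2.42e-06). IL32 went from 6.09 ± 2.45 to 48.3 ± 28.1 CPM and IL1B from 42.6 ± 7.56 to 104 ± 21.04 CPM (SD, n = 4), while IL1RN, the antagonist of the interleukin-1 receptor, fell. LIF, of the same family as IL11, fell (-1.09 ± 0.27). In the interferon and MHC class I list 7 of 38 rose and 10 fell (9 and 7 under TMM, median log2 fold change -0.06 and 0.10). OAS1, an antiviral synthetase, and IFITM2, a restriction factor, fell (-1.51 ± 0.31 and -0.93 ± 0.12), and IRF9 and STAT2, of the interferon-stimulated transcription complex, rose (0.95 ± 0.15 and 0.39 ± 0.10). For HLA-B and HLA-C the log2 fold changes were -0.04 and 0.14, with adjusted p of 0.842 and 0.215, the last 0.00844 under TMM. Of the EGF receptor family and its ligands 0 of 15 rose and 7 fell (1 and 7 under TMM, median log2 fold change -0.58 and -0.41). The ligand genes EPGN, epigen (361 ± 71.6 to 126 ± 22.4 CPM), and EREG, epiregulin (-0.89 ± 0.28), fell, as did the receptor inhibitors LRIG1 (-1.08 ± 0.13) and ERRFI1 (-0.91 ± 0.13). EGFR did not pass (0.12 ± 0.13, adjusted p = 0.462).

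Among other growth factors and receptors 14 of 29 rose and 6 fell (15 and 5 under TMM, median log2 fold change 0.28 and 0.44). PDGFC rose from 42.4 ± 13.5 to 151 ± 26.04 CPM and NT5E, the ecto-nucleotidase CD73, from 323 ± 111 to 947 ± 100.3 CPM, while FGFBP1, a carrier of fibroblast growth factors, fell from 189.7 ± 38.7 to 23.1 ± 4.73 CPM, IGFBP2 from 50.1 ± 14.1 to 4.97 ± 2.10 CPM and FGFR3 from 57.6 ± 23.3 to 7.56 ± 1.19 CPM (SD, n = 4). In the WNT list 6 of 32 rose and 12 fell (8 and 7 under TMM, median log2 fold change -0.13 and 0.03). WNT9A (2.58 ± 0.22), WNT7A (2.01 ± 0.29) and WNT5A (1.88 ± 0.19) were ligands that rose, and the receptor genes FZD3 (-0.67 ± 0.10) and FZD5 (-0.68 ± 0.15) fell. For NOTCH 3 of 18 rose and 5 fell (4 and 5 under TMM, median log2 fold change -0.04 and 0.12). The ligand JAG1 (0.93 ± 0.21) and LFNG, which glycosylates the receptors (1.28 ± 0.18), rose, and the receptor genes NOTCH1 (261 ± 47.1 to 123 ± 6.68 CPM) and NOTCH3 (31.4 ± 18.04 to 8.41 ± 3.61 CPM) and the target HES1 (-0.68 ± 0.12) fell. The falls in the WNT list (37.5% lower and 21.9% under TMM) were near the share over all genes, as were those in the keratin list (31.8% lower and 27.3% under TMM), and the NOTCH (27.8% lower and 27.8% under TMM) and interferon lists (26.3% lower and 18.4% under TMM) were below it under library-size scaling. Medians of the AP-1, interferon, WNT and NOTCH lists had the opposite sign under TMM. Of YAP and TEAD targets 11 of 21 rose and 3 fell (14 and 1 under TMM, median log2 fold change 0.27 and 0.43), with F3, tissue factor (1.09 ± 0.17), and DLC1 (1.55 ± 0.24) higher and FJX1 (-0.64 ± 0.15) lower. CCN1 and CCN2, matricellular proteins also known as YAP targets, rose by 1.37 ± 0.26 and 1.77 ± 0.26. With the series as a block, falls were 4 in the matrix glycoprotein list, 4 in collagen chains, 2 in proteolysis, 4 in EMT factors, 4 in AP-1 and 6 in TGFβ ligands and receptors, and rises were 4 in sterol synthesis, 2 in NRF2 and 11 in interferon genes. Calls over all 14865 genes also grew in that fit, to 2430 higher and 6488 lower, from 2061 and 5705. Without series 27-2, falls were 3 in matrix glycoproteins, 2 in proteolysis and 7 in cytokines, and rises 2 in G1 regulators and 2 in sterol synthesis. Over all genes tested, 1972 were then called higher and 5498 lower.

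Between 24 and 72 h of TGFβ1, 696 genes were higher and 468 lower at 72 h, and this number depended on the fit. It was 2588 with the series as a block, 543 from the 2 groups alone, 409 with counts summed per clone and 488 without 24 h library 27-1. The 5 largest rises with non-overlapping libraries were MARCHF4, a ubiquitin ligase gene (log2 difference 1.32 ± 0.26 SE, adjusted p = 0.00313), and 4 genes of DNA replication or repair, FAM111B (1.27), RRM2 (1.23), CLSPN (1.08) and EXO1 (1.05). POSTN was higher still at 72 h, from 132 ± 138 CPM at 24 h to 513 ± 249.6 CPM (log2 difference 2.33 ± 0.60 SE, adjusted p = 0.0153). The 5 largest falls were those of BGN, the proteoglycan biglycan (log2 difference -2.91 ± 0.62 SE, adjusted p = 0.00474), PSCA (-1.74), IGFBP2 (-1.51), RDH16, a retinol dehydrogenase (-1.48), and UNC5B, a netrin receptor (-1.38). BGN averaged 3.35 ± 1.72 CPM in solvent, 10.9 ± 4.95 at 24 h and 1.74 ± 1.42 at 72 h (SD, n = 4). RDH16, at 11.2 ± 4.34 CPM at 24 h, remained above solvent at 72 h (log2 fold change 1.60 ± 0.59 SE, adjusted p = 0.0238). SNAI1, SNAI2, CDH2, EPCAM and ITGB6 did not pass between 24 and 72 h (adjusted p = 0.714, 0.419, 0.301, 0.867 and 0.648). FN1 averaged 6436 ± 2070.0 CPM at 24 h and 12905 ± 3773 at 72 h (log2 difference 1.02 ± 0.49 SE, adjusted p = 0.219).

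A few matrix genes came to take a large share of the RNA. The 10 most abundant genes of each library held 4.68, 4.68, 4.86 and 4.44% of its counts in solvent and 8.05, 7.79, 8.18 and 9.43% at 72 h. The means were 4.67 ± 0.17% and 8.36 ± 0.73% (SD, n = 4), a difference that gave p = 0.0286 in a two-sided exact permutation test, the smallest p that 4 against 4 allows. TGFBI and FN1 held 1.40 and 1.29% of the counts of WT 72 h libraries on average, up from 0.120 and 0.0741%. Other genes among the 10 highest at 72 h were ACTB, LAMA3, KRT81, LAMB3, KRT7 and ACTG1. Of these, KRT81 (-0.16 ± 0.09) and ACTG1 (0.20 ± 0.15) did not pass, and both have near-identical copies (KRT86 and ACTB) with which reads may be shared.

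No difference between the 2 WT clones was detected with 2 replications each. No gene passed the test of a clone difference in the 72 h change (0 of 14865, 0.0%) with limma under library-size or TMM scaling, and 511 genes had an unadjusted p under 0.05. With the series as a block, an alternative chosen after seeing the data, the count was also 0 under both scalings, with 978 unadjusted under library-size scaling. In the mut clones the 72 h change differed from that in WT cells for 1831 genes (12.3%), 1397 with a higher and 434 with a lower log2 change than in WT. Under TMM the split was 674 and 617, and 3488 genes differed with the series as a block and 626 with clone sums. Both tests share the WT libraries. JUNB itself measured 112 ± 47.9 CPM in solvent and 236 ± 96.9 CPM at 72 h in the mut clones, so that counts over the whole gene do not check the edit (difference of the changes 0.28 ± 0.47 SE, adjusted p = 0.758). TGM2 measured 71.6 ± 20.4 CPM in solvent and 365 ± 66.8 CPM at 72 h in the mut clones (difference -2.39 ± 0.34 SE, adjusted p = 6.29e-05). ALDH3A1, among the largest falls in WT cells, measured 276 ± 14.7 CPM in solvent and 109 ± 17.6 CPM at 72 h in the mut clones (difference 3.17 ± 0.64 SE, adjusted p = 0.00174). For TGFBI the mut values were 957 ± 591 and 4218 ± 919 CPM (difference -1.29 ± 0.34 SE, adjusted p = 0.012), and for LAMA3 1043 ± 295 and 2678 ± 389 CPM (difference -0.87 ± 0.25 SE, adjusted p = 0.0205). The WT rise was larger than the mut rise in each of TGM2, TGFBI and LAMA3. Of 39 ribosome biogenesis genes 26 had a higher change in mut cells (14 under TMM), and of 40 respiratory chain genes 22 (8 under TMM). For FN1, VIM, CDH2, CDH1 and EPCAM the difference between WT and mut change did not pass (adjusted p = 0.698, 0.854, 0.321, 0.87 and 0.127).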

How the data were processed

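RNA-seq libraries were made from total RNA with a kit that does not keep strand (TruSeq RNA v2) and sequenced paired-end. The authors trimmed reads, aligned them with STAR to GRCh38 with Ensembl genes, and deposited raw counts per gene for all 32 libraries, which they analysed with limma voom. Here the deposited counts were fitted in limma 3.58.1 (R 4.3.3, edgeR 4.0.16) with voom, library-size scaling and 1 mean per condition over all 32 libraries, after a filter (filterByExpr, at least 10 counts) that kept 14865 of 17788 genes. Genes with a Benjamini-Hochberg adjusted p under 0.05 were called. Adjusted p-values in the text come from this fit over all tested genes. The share of counts in the most abundant genes was compared by an exact permutation test. CPM are counts per 1000000 gene counts, and the scripts were tested on simulated data. The 8 libraries held 39702412 to 49442595 counts, and floors cover counting error only.

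Libraries were grouped by their labels. Solvent and 72 h libraries of 1 series deviated together (correlations of 0.200 to 0.584, against at most 0.172 for other pairs), so the clone and replication given in the labels pair them. The fit without the block follows the study.

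Genes were named by rule: 143 genes (EMT markers, the 12 largest rises and falls, up to 2 rises and 2 falls of each list, the 5 largest differences from 24 h and the 10 most abundant). Some genes that the rule names are not reported here. A further 60 list members were named for their known roles after their values were seen. Members, lists and tests were chosen with earlier results of these data known. Without strand, reads of overlapping genes cannot be told apart, and exons of 30 and 15 of these genes overlap another gene (JUNB with HOOK2, CLDN7 with ELP5, TGM2 with RPRD1B, CAMK2B with YKT6, ADAM19 with CYFIP2, TAGLN with PCSK7, ACTA2 with FAS, PSCA with JRK and others). Alternatives were TMM, edgeR's quasi-likelihood test, DESeq2 1.42.0, other filters, the series as a block and libraries left out.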

Additional observations from a re-analysis of the deposited data

Results flagged for a closer look

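In 25 of 406 groups of 4 looked at, taken from WT solvent and WT 72 h for the genes named by rule or for their known roles, 1 library lay far from the other 3 on the log2 scale. Chance gives this in about 1 of 20 groups. Of the 25, 18 were libraries of series 27-2. The WT solvent library 27-1 was above the other 3 for CTNNA1 (621 against 578 to 584 CPM) and TJP1 (179.9 against 161 to 163 CPM). The WT solvent library 27-2 was above the other 3 for SNAI1 (0.778 against 0.21 to 0.227 CPM), ZEB1 (15.5 against 7.79 to 8.16 CPM), MAD2L1 (60.9 against 46.6 to 48.7 CPM), PDGFC (62.6 against 34.5 to 37.04 CPM), DLC1 (17.6 against 8.85 to 9.46 CPM), MMP14 (318 against 278 to 281 CPM) and SMAD7 (14.4 against 10.9 to 11.3 CPM) and was below them for SCNN1B (7.53 against 28.8 to 36.8 CPM), SLC27A2 (7.75 against 14.1 to 15.9 CPM), ESRP1 (118 against 197 to 209 CPM), RBM47 (9.61 against 22.4 to 24.03 CPM), KRT5 (5234 against 6452 to 6697 CPM), S100A9 (74.3 against 308 to 399 CPM), FOSL2 (106 against 149 to 158 CPM) and ERRFI1 (125 against 159 to 166 CPM). The WT solvent library 2-1 was below the other 3 for RUNX1 (75.1 against 85.04 to 85.9 CPM). The WT solvent library 2-2 was below the other 3 for WNT9A (5.26 against 12.1 to 13.2 CPM) and MMP9 (1.36 against 4.57 to 5.00 CPM). The WT 72 h library 27-1 was below the other 3 for EREG (30.5 against 55.1 to 59.2 CPM). The WT 72 h library 27-2 was above the other 3 for TWIST1 (17.01 against 11.7 to 12.5 CPM) and was below them for ITGB6 (795 against 1032 to 1069.9 CPM) and PLEC (1586 against 1819 to 1849 CPM). The WT 72 h library 2-2 was below the other 3 for FGFBP1 (15.97 against 25.1 to 25.6 CPM). What sets these libraries apart was not tested.

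Among the same genes, 143 named by rule and 60 for their known roles, 54 had a 72 h change that differed between mut and WT cells. This was by the interaction test in limma, with an adjusted p under 0.05, which 12.3% of all genes passed. Many of these genes were named for the size of their WT 72 h change, which the test also uses. The 54 therefore do not measure how often the changes differ. The mut log2 change minus the WT log2 change was positive for ALDH3A1 (3.17), RIPOR2 (2.74), FGFBP1 (2.69), CAMK2B (2.55), SCNN1B (2.46), IGFBP2 (2.41), PSCA (2.39), ABCC2 (1.96), PPL (1.66), ENTPD2 (1.61), TM7SF2 (1.01), HMGA2 (0.88), MYC (0.67), FBL (0.66), ACTA2 (0.65), GCLC (0.60), CDT1 (0.60), MAD2L1 (0.56), HES1 (0.55), GSR (0.52), NOTCH1 (0.51), POLR1B (0.51), CDK4 (0.50), PDK1 (0.48), CRTAP (0.46), CYC1 (0.44) and TGIF2 (0.42). It was negative for ITGB3 (-4.48), IL32 (-2.56), TGM2 (-2.39), MMP2 (-2.19), HMOX1 (-2.07), LOX (-1.40), WNT9A (-1.39), TGFBI (-1.29), IL1B (-1.21), IRF9 (-1.03), PDGFC (-0.96), SOX4 (-0.93), FAP (-0.89), LAMA3 (-0.87), TGFBR1 (-0.83), HLA-B (-0.75), MMP14 (-0.75), TIMP2 (-0.71), ITGAV (-0.70), JUN (-0.70), STAT2 (-0.62), SMAD7 (-0.59), P4HA2 (-0.55), CTNNB1 (-0.42), HLA-C (-0.40), TJP1 (-0.38) and CTNNA1 (-0.25).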

How the results depend on the processing

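Scaling moved the split of calls most. For 72 h against solvent, higher calls numbered 3189 with TMM and 3411 with DESeq2, against 2061, and lower calls 3459 and 3428, against 5705. TMM without series 27-2, chosen after seeing the data, gave 3251 lower calls, and the replicate block with TMM 3735 higher. Requiring 1 log2 unit left 1500 (625 higher, 875 lower), or 771 higher and 626 lower with TMM. Leaving out 1 library gave 6870 to 7672 calls.

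For 72 h against 24 h, the 1164 calls became 2588 (1356 higher, 1232 lower) with the series as a replicate block, 2673 (1261 higher, 1412 lower) with the block and TMM, 543 (262 higher, 281 lower) from the 2 groups alone, 409 (228 higher, 181 lower) with counts summed per clone and 88 (38 higher, 50 lower) at 1 log2 unit, and DESeq2 gave 762 lower. Leaving out 1 library gave 488 to 1430 in all, 287 to 832 higher and 201 to 641 lower, with 488 without 24 h library 27-1, 528 without 24 h library 2-2, 571 without 72 h library 27-1 and 624 without 72 h library 27-2. For the difference between mut and WT, the 1831 calls became 3488 (2547 higher, 941 lower) with the replicate block, 2783 with the block and TMM (1323 lower), 626 (431 higher, 195 lower) with clone sums and 229 (122 higher, 107 lower) at 1 log2 unit. Higher and lower calls were 674 and 617 with TMM, 803 and 852 with DESeq2 and 730 and 700 with TMM without series 27-2. Leaving out 1 library gave 890 to 1432 higher, the lowest without 72 h library 2-2. The cause of these shifts was not tested, except that clone sums and left-out libraries hold fewer samples.

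The rise of the top 10 share was 3.34 to 3.89 percentage points with 1 library left out, where 3 against 4 cannot give a p under 0.0571. Of the 143 genes named by rule none changed direction past the threshold under any alternative. With the replicate block 139 kept their side of the threshold, and BGN, FAM111B, MKI67 and ZEB2 passed in addition. TMM ended 10 calls (CDH1, COL4A6, COL5A2, EXO1, FOXC1, GLI3, KRT13, LAMA5, MYH10 and MYOF) and added TWIST2, and leaving out series 27-2 ended those of CCND1, CDKN1A, COL4A6, IVL and JUNB. Of the 60 further genes, TMM ended the calls of ESRP1 and OCLN and added HLA-C. Single libraries left out also ended calls of CCND1, CDKN1A, COL4A6, EREG, ESRP1, EXO1, GLI3, IVL, KRT13, KRT6B, LAMA5, OCLN, RDH16 and SPINT1. JUNB lost its call without 72 h library 2-1, 2-2, 27-1 or 27-2 and without solvent library 2-2, 27-1 or 27-2, and CDH1 without 72 h library 2-2 or 27-2 and without solvent library 2-1, 2-2 or 27-1. The spread in these fits includes the mut clones. In the fit of the WT solvent and WT 72 h libraries alone JUNB kept its call and CDH1 did not. With 39702412 counts or more in each of the 8 libraries, 3 counts correspond to at most 0.0756 CPM. The filter on counts (filterByExpr, at least 10 counts) is stricter, and genes that it left out were not tested for a change.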
